A study of Homo sapiens with 12 samples.

Results

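The genes described here encode the RNA polymerase subunits, the general transcription factors of the GTF2 series, the TATA-binding protein-associated factors (TAFs) and the subunits of Mediator, together with a few of their kinases and regulators. They were selected by gene name, as rows named POLR1, POLR2 or POLR3 with a subunit letter, GTF2 with its letters, TAF or MED with a number, or BRF1, BRF2, CDK7, CDK8, CDK9, CCNT1, CCNT2 or HEXIM1, and in which 3 or more samples reached 10 counts. The names matched 140 rows, of which 107 met the count minimum, out of 17092 genes tested and 63677 in the table. The 107 members carried 106 distinct names, since 2 rows were named POLR2J4. Of the 33 rows below the minimum, 27 had no count in any sample and the highest count of the others was 3. They were pseudogenes, copies on alternative sequences and a few genes such as TAF1L and TAF4B.

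The members were measured by RNA sequencing of Huh7 cells, a cell line from a human hepatocellular carcinoma, in 4 groups of 3 samples. The cells were left untreated or were exposed for 6 h to graphene oxide (GO) at 400 µg/mL, to GO carrying the ginsenoside Rg3 (GO-Rg3) at 400 µg/mL, or to GO-Rg3 loaded with the anthracycline doxorubicin (GO-Rg3-DOX) at 100 µg/mL. The GO-Rg3-DOX group therefore differed from the GO-Rg3 group in the carrier dose as well as in the drug, so that the 2 cannot be told apart, and samples with free doxorubicin were not analysed here. All samples came from 1 cell line, and the labels do not state that replicates were separate cultures, so that p-values measure the spread between these samples, which may be technical.

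RNA polymerase I transcribes the ribosomal RNA genes, RNA polymerase II the protein-coding genes, and RNA polymerase III the transfer RNA and other short RNA genes. Each needs its own factors to find a promoter, namely SL1 with its TAF1A to TAF1D subunits for polymerase I, TFIIA to TFIIH with TFIID for polymerase II, and TFIIIB with BRF1 or BRF2 for polymerase III. Mediator connects activators to polymerase II through its tail, middle and head and carries a separable kinase module, P-TEFb (CDK9 with a cyclin T) releases paused polymerase, and HEXIM1 holds P-TEFb inactive. Doxorubicin intercalates into DNA and poisons topoisomerase II.

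Total counts per sample ranged from 27802871 to 38877420, and the members took 0.529% to 0.533% of them in untreated cells, 0.428% to 0.495% with GO, 0.523% to 0.529% with GO-Rg3 and 0.432% to 0.477% with GO-Rg3-DOX. Mitochondrial transcripts took 5.31% to 6.28%, 12.1% to 24.1%, 6.89% to 7.42% and 12.8% to 19.4% in the same order, and GO replicate 1 and GO-Rg3-DOX replicate 1 were the highest of their groups and stood apart from their replicates. The summed level of 10 hepatocyte markers lay between 13500 and 31700 CPM (read counts relative to the total of the library) in all samples, lowest with GO (13500 to 19600 CPM), and that of 9 markers of other cell types between 2.16 and 4.55 CPM, highest with GO-Rg3-DOX (4.29 to 4.55 CPM), with PECAM1 and KRT7 at 0. The part of these differences in the results below was not tested. Levels are CPM after edgeR's TMM scaling, a gene was taken to pass the test at an adjusted p below 0.01 in edgeR's quasi-likelihood test over all genes, and it was called overexpressed or under-expressed where the log2 fold change was also above 1 or below -1.

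Per kilobase of exon, POLR2A, the largest subunit of RNA polymerase II, had the highest level of all members in untreated cells (51.8 CPM per kb). It was followed by POLR2L, a small subunit common to the 3 polymerases (41 CPM per kb), TAF9, a histone-fold subunit of TFIID (40.6 CPM per kb), and POLR2J, a subunit of polymerase II (39.1 CPM per kb). The next were GTF2F1, a subunit of TFIIF (31.7 CPM per kb), and POLR2C (29.7 CPM per kb). The length used was that of all annotated exons of a gene together, which can exceed that of its transcripts. The order between genes depends on this choice, and another length could change it. With GO-Rg3-DOX the per-length level of POLR2A was 169.0 CPM per kb, ahead of POLR2L at 69.6 and POLR2J at 65.4 CPM per kb, whereas TAF9 stood at 22.4 CPM per kb. The row named TAF9 carries an identifier that the annotation used here assigns to AK6, which shares its locus, and the 2 genes cannot be told apart in it.

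The first question of the design was what the drug-loaded carrier does to the cells. With GO-Rg3-DOX, 9 members were called overexpressed (8.41% of the members, against 12.6% of all genes tested) and 34 under-expressed (31.8%, against 18.2%). By adjusted p alone 19 members were higher (17.8%, against 25.5%) and 59 lower (55.1%, against 30.5%), and the median log2 fold change of the members was -0.57 against -0.06 over all genes. In bulk RNA, fewer cells expressing a gene and less RNA per cell cannot be told apart. Scaling by library totals alone moved the median of all genes to -0.47 and that of the members to -0.98, and left 1 member called overexpressed (POLR2A) and 53 under-expressed. Without GO-Rg3-DOX replicate 1, which stood apart, 9 members were overexpressed and 35 under-expressed, and 14 and 55 passed by adjusted p. Over all genes these counts were 1954, 2903, 3878 and 4718. The plot by role shows the members in each class.

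**Figure D1:**
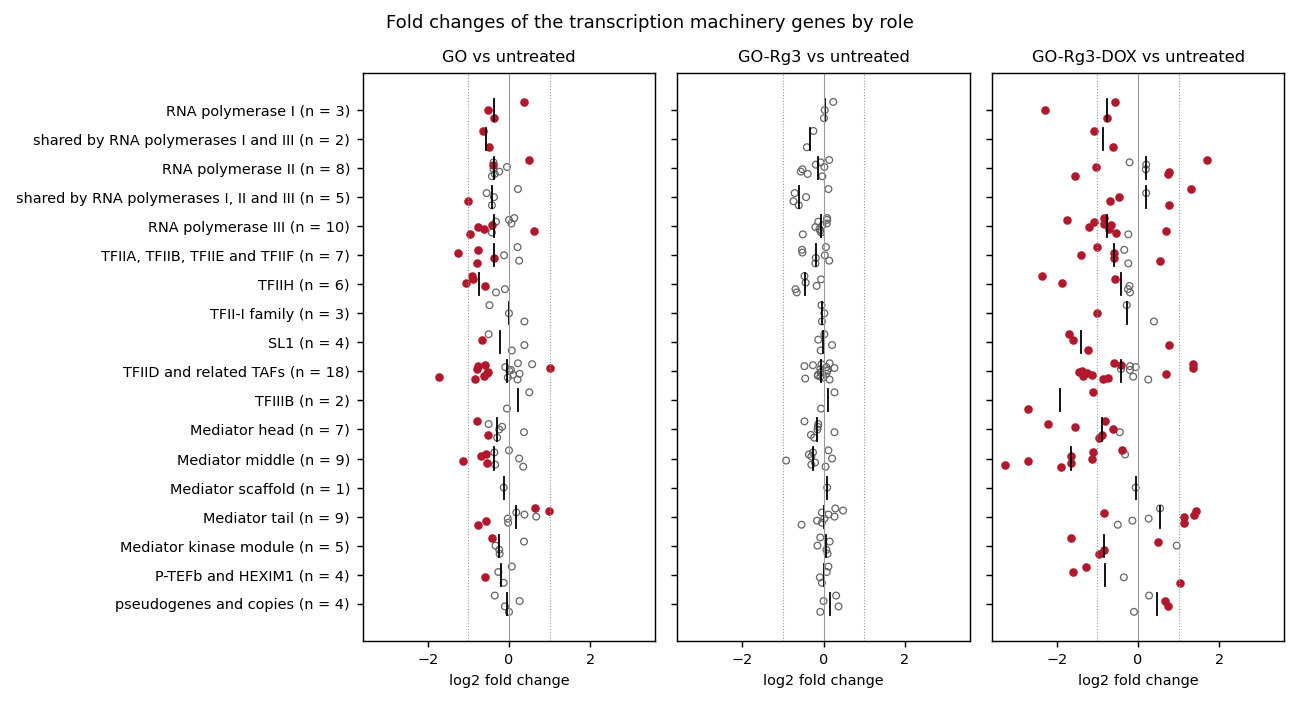
Log2 fold change (x axis) of the 107 members by role (y axis) for the 3 treatments against untreated cells. Each point is a gene, filled where the adjusted p was below 0.01, the thick bar is the median of the role and dotted lines mark log2 fold changes of -1 and 1. With GO-Rg3-DOX the median of the 9 Mediator middle subunits lay at -1.66 and that of the 9 tail subunits at 0.54, and no point is filled for GO-Rg3.

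Among the polymerase subunits, POLR2A rose the most. Its level was 397, 454 and 447 CPM in the untreated samples, 629, 590 and 610 CPM with GO, 510, 443 and 481 CPM with GO-Rg3, and 1477, 1332 and 1415 CPM with GO-Rg3-DOX. All 3 GO-Rg3-DOX samples lay above every other sample, the GO samples lay between them and the untreated ones, and the GO-Rg3 samples overlapped the untreated ones. The log2 fold change was 1.70 ± 0.10 (SE, adjusted p = 1.2e-09) with GO-Rg3-DOX and 0.49 ± 0.09 (adjusted p = 0.00074) with GO. With a term for GC content in the fit the latter came to 0.26 (adjusted p = 0.017). POLR2A lies on chromosome 17 at 7387685 to 7417933 of GRCh37 on the plus strand. POLR2B, which forms the active centre together with POLR2A, did not pass the test with GO-Rg3-DOX (146 ± 1.06 CPM in untreated cells and 126.6 ± 15.1 CPM with GO-Rg3-DOX, SD, n = 3).

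The other core subunits of polymerase II were split. POLR2E, a subunit common to all 3 polymerases, had 136.6, 110.8 and 118.1 CPM in untreated cells and 320, 291 and 288 CPM with GO-Rg3-DOX (log2 fold change 1.3 ± 0.21, adjusted p = 6.4e-05). With a GC content term the POLR2E value was 0.77, and with library totals alone 0.88, both below the limit for a call. Its 3 GO-Rg3 samples spread from 77.0 to 184 CPM and overlapped the untreated ones. POLR2D, which with POLR2G forms the stalk of polymerase II, fell by 1.04 on the log2 scale (adjusted p = 1.3e-07), and POLR2M, a Gdown1 subunit row that shares exons with GCOM1, fell by 1.54 (adjusted p = 8.8e-08). POLR2D was not called with DESeq2 or RLE scaling. POLR2G stood at 50.1 ± 2.93 CPM in untreated cells and 57.1 ± 4.30 CPM with GO-Rg3-DOX and did not pass the test. POLR2I, POLR2J and POLR2L passed by adjusted p with log2 fold changes of 0.75, 0.74 and 0.76, and of these POLR2I and POLR2L share 69.0% and 22.8% of their exons with genes on the opposite strand. None of these 3 passed with a GC content term (0.16, 0.40 and 0.24, adjusted p 0.32, 0.015 and 0.11) or with library totals alone (0.33, 0.31 and 0.34, adjusted p 0.15, 0.061 and 0.12).

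All 3 subunits particular to polymerase I were lower with GO-Rg3-DOX by adjusted p. POLR1B, its second largest subunit, had 59.1, 63.8 and 60.7 CPM in untreated cells, 39.4, 44.9 and 43.7 CPM with GO, 60.8, 64.3 and 62.3 CPM with GO-Rg3 and 11.6, 12.8 and 13 CPM with GO-Rg3-DOX. The GO-Rg3-DOX samples lay below all others, the GO samples between, and the GO-Rg3 samples overlapped the untreated ones. The log2 fold change was -2.29 ± 0.10 (adjusted p = 1.1e-10) with GO-Rg3-DOX and -0.52 ± 0.09 (adjusted p = 0.00039) with GO. POLR1A, the largest subunit, was lower with GO-Rg3-DOX (-0.56 ± 0.10, adjusted p = 9.8e-05) and higher with GO (0.37 ± 0.09, adjusted p = 0.0057), and the latter lost its place below 0.01 without any 1 of the untreated or GO samples (adjusted p 0.011 to 0.032), with a GC content term (0.017) or with library totals alone (0.062). POLR1C and POLR1D, which form the assembly platform of polymerases I and III, had log2 fold changes of -1.09 and -0.62 with GO-Rg3-DOX, both with an adjusted p below 0.01.

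In SL1, the promoter factor of polymerase I, 3 of 4 TAFs were under-expressed with GO-Rg3-DOX. TAF1A had 12.4, 11.7 and 12.5 CPM in untreated cells and 3.09, 3.67 and 4.42 CPM with GO-Rg3-DOX, without overlap (log2 fold change -1.71 ± 0.20, adjusted p = 2.3e-06). TAF1B and TAF1D followed at -1.61 and -1.22. TAF1C moved the other way, from 36.8, 34.8 and 37.1 CPM to 53.4, 62.1 and 67.4 CPM (0.75 ± 0.15, adjusted p = 0.0004). This difference did not pass with a GC content term (0.10, adjusted p = 0.3) or with library totals alone (0.34, adjusted p = 0.09), and TAF1D came to -0.74 with the GC content term. In the annotation TAF1D also hosts small nucleolar RNAs.

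Polymerase III and its factor TFIIIB were lower in nearly all members. Of 10 polymerase III subunits 8 were lower by adjusted p with GO-Rg3-DOX and 1 higher, and 3 were called under-expressed. POLR3B, the second largest subunit, had 71.8, 69.2 and 69.1 CPM in untreated cells, 64.4, 74.0 and 71.5 CPM with GO, 71.7, 78.4 and 73.4 CPM with GO-Rg3 and 22.9, 19.7 and 19.2 CPM with GO-Rg3-DOX. The GO-Rg3-DOX samples were the lowest, and the other 3 groups overlapped (log2 fold change with GO-Rg3-DOX -1.76 ± 0.10, adjusted p = 1.2e-09). POLR3A, the largest subunit, fell by 0.84 on the log2 scale (adjusted p = 1.6e-06), and POLR3F and POLR3C had log2 fold changes of -1.21 and -1.08. The exception was POLR3GL, a paralogue of POLR3G, which rose from 4.68, 4.89 and 5.28 CPM to 8.12, 7.91 and 7.85 CPM (0.68 ± 0.14, adjusted p = 0.0005), while POLR3G stood at -0.71 (adjusted p = 8.3e-05). Neither value held under both other scalings, since POLR3G came to -0.15 (adjusted p = 0.13) with a GC content term and POLR3GL to 0.27 (adjusted p = 0.098) with library totals alone.

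BRF2, the TFIIIB subunit for promoters of the U6 type, had 19.4, 18.5 and 18.8 CPM in untreated cells, 16.8, 19.2 and 18.7 CPM with GO, 19.4, 16.7 and 18.4 CPM with GO-Rg3 and 2.47, 3.20 and 2.97 CPM with GO-Rg3-DOX. Only the GO-Rg3-DOX samples stood apart, at 0.152 of the untreated mean (log2 fold change -2.71 ± 0.13, adjusted p = 2.3e-10). In the annotation 60.0% of the BRF2 exons overlap a gene on the opposite strand, whose row (GPR124) held 1 to 12 counts in each sample. BRF1, the paralogue used at transfer RNA genes, had 14.2, 11.4 and 12 CPM in untreated cells and 6.06, 6.00 and 5.34 CPM with GO-Rg3-DOX, also without overlap (-1.11 ± 0.19, adjusted p = 8.1e-05).

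**Figure D2:**
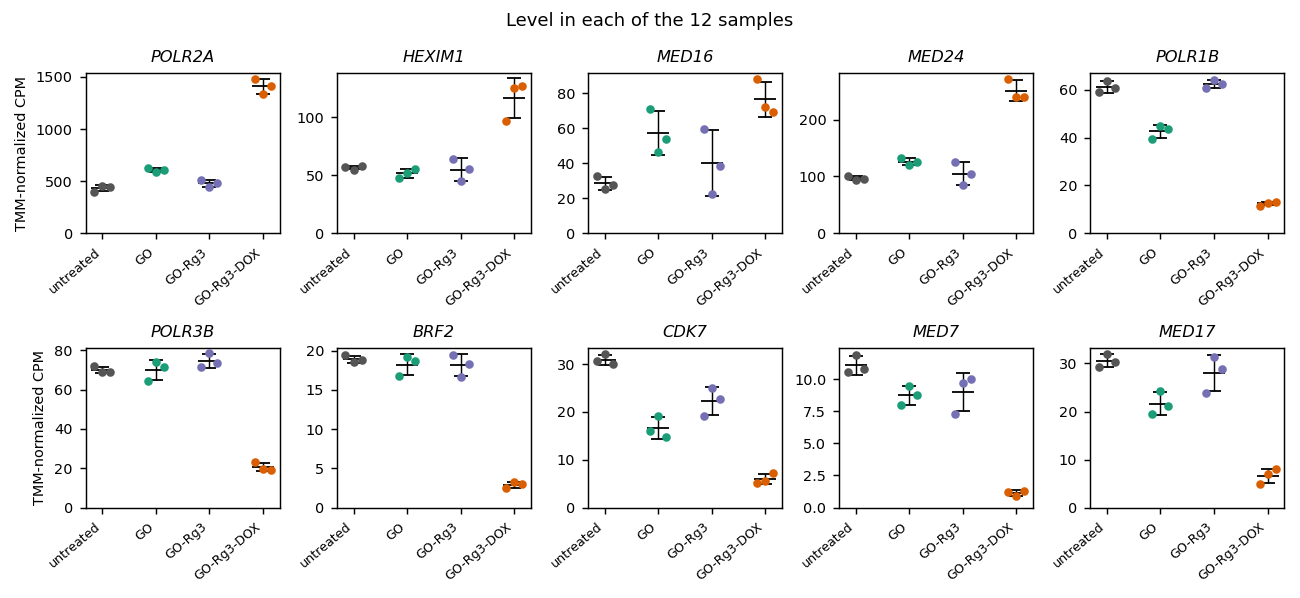
Level in CPM (y axis, from 0) of 10 members in the 12 samples, by group (x axis). Each point is a sample, the middle bar is the group mean and the error bars are the SD (n = 3). POLR2A, HEXIM1, MED16 and MED24 were highest with GO-Rg3-DOX and the other 6 genes lowest, and MED16 spread from 22.1 to 59.6 CPM among the GO-Rg3 samples.

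Of the 13 TFIIA to TFIIH genes none was called overexpressed with GO-Rg3-DOX, 4 were called under-expressed (CDK7, GTF2H2, GTF2E1 and GTF2A1), and 7 were lower by adjusted p. CDK7, the kinase of TFIIH, had 30.6, 32.1 and 30.1 CPM in untreated cells, 16.1, 19.1 and 14.7 CPM with GO, 19.1, 24.9 and 22.8 CPM with GO-Rg3 and 5.19, 5.57 and 7.24 CPM with GO-Rg3-DOX. All 3 treated groups lay below the untreated samples and the GO-Rg3-DOX samples below all others. The log2 fold change was -2.36 ± 0.15 (adjusted p = 3.8e-09) with GO-Rg3-DOX and -0.90 ± 0.14 (adjusted p = 0.00015) with GO, and the GO-Rg3 group did not pass the test (adjusted p = 0.10). GTF2H2, the p44 subunit of TFIIH, fell by 1.86, but it has near-identical copies next to it between which reads may be split. GTF2E1, the large subunit of TFIIE, had a log2 fold change of -1.41 and GTF2A1, which encodes the large TFIIA subunits, of -1.01. GTF2A1 was not called with DESeq2 or RLE scaling. GTF2F1, the large subunit of TFIIF, was the only one higher by adjusted p, at 0.54 ± 0.13 (adjusted p = 0.002), and it did not pass with a GC content term (0.06, adjusted p = 0.46) or with library totals alone (0.12, adjusted p = 0.4). GTF2B, the single-chain factor TFIIB that bridges TFIID and polymerase II, fell by 0.60 (adjusted p = 0.0011), a difference that came to -0.22 (adjusted p = 0.071) once a term for GC content was fitted.

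The TAFs of TFIID and of the related SAGA-type complexes moved both ways, with 2 called overexpressed and 5 under-expressed of 18. TAF10, a histone-fold TAF shared by both complexes, had 29.8, 28.6 and 29.0 CPM in untreated cells, 60.4, 32.9 and 37 CPM with GO, 30.9, 25.8 and 27.7 CPM with GO-Rg3 and 101.7, 63.3 and 59.7 CPM with GO-Rg3-DOX. GO replicate 1 and GO-Rg3-DOX replicate 1 were the highest of their groups, and all GO-Rg3-DOX samples but replicate 3 lay above every GO sample. The log2 fold change with GO-Rg3-DOX was 1.36 ± 0.21 (adjusted p = 4.7e-05), and 40.8% of the TAF10 exons overlap ILK on the opposite strand, whose row stood at 1.42 ± 0.13 CPM in untreated cells and 1.48 ± 0.36 CPM with GO-Rg3-DOX. TAF15, an RNA-binding protein of the FET family, had 178, 164 and 184 CPM in untreated cells, 443, 278 and 325 CPM with GO and 552, 389 and 386 CPM with GO-Rg3-DOX. Both treated groups lay above the untreated samples, with replicate 1 the highest in each (1.34 ± 0.16, adjusted p = 3.4e-06 with GO-Rg3-DOX). Without GO-Rg3-DOX replicate 1 the log2 fold changes were 1.08 for TAF10 (adjusted p = 0.00033) and 1.15 for TAF15 (adjusted p = 2.2e-05).

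The under-expressed TAFs were TAF5, TAF4 and TAF7, with log2 fold changes of -1.45, -1.38 and -1.35, and the paralogues TAF5L and TAF6L, at -1.26 and -1.13, which belong to SAGA-type complexes. TAF4, a scaffold of TFIID, had 38.8, 35.3 and 36.6 CPM in untreated cells and 15.4, 13.4 and 13.6 CPM with GO-Rg3-DOX, without overlap. TAF1, the largest TFIID subunit, passed at -0.60 ± 0.17 (adjusted p = 0.0051) but not without untreated replicate 2 or 3 or GO-Rg3-DOX replicate 1 or 2 (adjusted p 0.016 to 0.026). TAF6, another histone-fold TAF, was higher by 0.68 ± 0.12 (adjusted p = 8.7e-05), but came to 0.26 (adjusted p = 0.067) with library totals alone. TAF3, TAF9B, TAF12 and TAF13 did not pass the test and differed by 0.25 or less on the log2 scale, although TAF9B came to 0.73 (adjusted p = 1.8e-05) with a GC content term.

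Mediator divided by module with GO-Rg3-DOX, as the plot of its 31 subunits shows. In the middle module 7 of 9 subunits were under-expressed and 8 were lower by adjusted p, with a median log2 fold change of -1.66. In the head 2 of 7 were under-expressed and 6 were lower by adjusted p (median -0.88). In the tail 4 of 9 were overexpressed, 1 (MED23) was lower by adjusted p and the median was 0.54. Scaling by library totals alone left the middle median at -2.08, the head at -1.31 and the tail at 0.12. No tail subunit was then called overexpressed and 1 (MED23) was under-expressed, with 4 of 9 higher and 3 lower by adjusted p. A GC content term gave medians of -1.15, -1.0 and 0.45, again with no tail subunit called, while 5 of 9 tail subunits were higher by adjusted p.

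**Figure D3:**
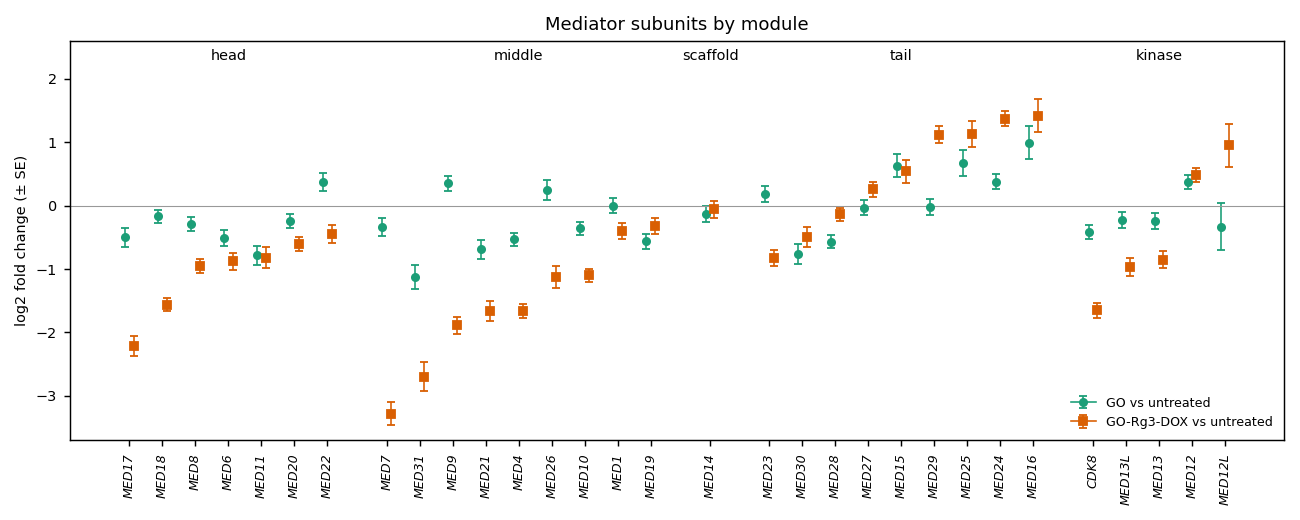
Log2 fold change with its SE (y axis) of the 31 Mediator subunits, grouped by module (x axis), with GO (circles) and GO-Rg3-DOX (squares) against the same untreated samples. With GO-Rg3-DOX the values run from -3.28 (MED7) in the middle module to 1.42 (MED16) in the tail.

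MED7, which forms the hinge of the middle module with MED21, had the largest fall of all members. It had 10.5, 11.9 and 10.8 CPM in untreated cells, 8.03, 9.47 and 8.74 CPM with GO, 7.33, 9.74 and 9.98 CPM with GO-Rg3 and 1.24, 0.898 and 1.3 CPM with GO-Rg3-DOX. The GO-Rg3-DOX samples lay below all others at 0.103 of the untreated mean (-3.28 ± 0.18, adjusted p = 9e-10). MED31 had the next largest fall within the middle module, with 8.31, 8.79 and 8.41 CPM in untreated cells, 4.58, 3.21 and 3.90 CPM with GO, 3.19, 6.14 and 4.2 CPM with GO-Rg3 and 1.20, 1.44 and 1.26 CPM with GO-Rg3-DOX. Every treated sample was below every untreated one (-2.70 ± 0.23, adjusted p = 6.9e-08 with GO-Rg3-DOX). MED31 shares 58.4% of its exons with TXNDC17 on the opposite strand, whose level was 59.7 ± 2.19 CPM in untreated cells and 54.4 ± 7.33 CPM with GO-Rg3-DOX. TXNDC17 was lower with GO (37.1 ± 9.5 CPM, log2 fold change -0.69, adjusted p = 0.0028). With GO-Rg3 it stood at 32.3 ± 4.6 CPM (-0.89, adjusted p = 0.018). The part of TXNDC17 reads in the MED31 values was not tested.

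The log2 fold changes of MED9, MED21 and MED4 were -1.89, -1.66 and -1.66, and those of MED26 and MED10 were -1.13 and -1.10, all with an adjusted p below 0.01. MED1, the subunit that binds nuclear receptors, passed at -0.40 ± 0.12 (adjusted p = 0.009), and did not pass with DESeq2 (adjusted p = 0.018) or without untreated replicate 1, 2 or 3 or GO-Rg3-DOX replicate 1 or 2 (adjusted p 0.024 to 0.039) or with a GC content term (adjusted p = 0.015). In the head, MED17, the central subunit on which the module is built, had 29.3, 32 and 30.4 CPM in untreated cells and 4.90, 6.90 and 7.93 CPM with GO-Rg3-DOX, without overlap (-2.21 ± 0.16, adjusted p = 1.4e-08). MED18, which pairs with MED20 in the head, fell by 1.56. MED14, the scaffold that joins all modules, had 72.6 ± 3.00 CPM in untreated cells and 69.5 ± 6.09 CPM with GO-Rg3-DOX and did not pass the test.

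The tail subunits called overexpressed were MED16, MED24, MED25 and MED29. Their log2 fold changes were 0.64, 0.98, 0.77 and 0.87 with a GC content term and 0.99, 0.95, 0.70 and 0.72 with library totals alone, each with an adjusted p below 0.01. MED24 had 100, 93.8 and 96.2 CPM in untreated cells, 133, 120.1 and 124.6 CPM with GO, 124.9, 85.2 and 104 CPM with GO-Rg3 and 272, 240 and 240 CPM with GO-Rg3-DOX. The GO-Rg3-DOX samples were the highest, the GO samples lay above the untreated ones, and the GO-Rg3 samples overlapped both (1.37 ± 0.12, adjusted p = 1.1e-07 with GO-Rg3-DOX). MED16 had 32.7, 25.4 and 27.7 CPM in untreated cells, 70.8, 46.4 and 54.0 CPM with GO, 59.6, 22.1 and 38.2 CPM with GO-Rg3 and 88.0, 71.8 and 69.4 CPM with GO-Rg3-DOX. The GO-Rg3-DOX and GO groups overlapped each other, and both lay above the untreated samples (1.42 ± 0.26, adjusted p = 0.00018, and 0.99 ± 0.26, adjusted p = 0.0062).

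MED29 rose by 1.12 ± 0.13 (adjusted p = 1.5e-06), and MED25, the target of several activators, by 1.13 ± 0.20 (adjusted p = 0.00014). MED25 shares 18.7% of its exons with PTOV1-AS1 on the opposite strand, which stood at 9.96 ± 1.3 CPM in untreated cells and 6.86 ± 1.03 CPM with GO-Rg3-DOX. MED15, a tail subunit bound by activators, had 49.8 ± 3.16 CPM in untreated cells and 72.3 ± 5.93 CPM with GO-Rg3-DOX and did not pass the test (adjusted p = 0.014). In the kinase module CDK8 was the only subunit under-expressed, with 19.8, 19.7 and 19.4 CPM in untreated cells and 5.73, 6.83 and 6.14 CPM with GO-Rg3-DOX (-1.65 ± 0.12, adjusted p = 2e-08). MED13 and MED13L, alternative links to the core, had log2 fold changes of -0.85 and -0.97, and MED12, the activator of CDK8, was higher by 0.49 ± 0.11 (adjusted p = 0.0012), which came to 0.07 (adjusted p = 0.66) with scaling by library totals alone and 0.23 (adjusted p = 0.047) with a GC content term.

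In the P-TEFb group the cyclins and the inhibitor moved apart with GO-Rg3-DOX. HEXIM1 had 57.2, 54.8 and 57.8 CPM in untreated cells, 47.5, 51.7 and 55.5 CPM with GO, 64.2, 45.1 and 55.4 CPM with GO-Rg3 and 96.4, 125.4 and 126.9 CPM with GO-Rg3-DOX. The GO-Rg3-DOX samples lay above all others and the other 3 groups overlapped. The log2 fold change was 1.04 ± 0.13 (adjusted p = 5.5e-06), and it stood just under the limit of 1 without GO-Rg3-DOX replicate 2 (0.98) or replicate 3 (0.97), and at 0.63 (adjusted p = 0.004) with library totals alone. CCNT1 fell by 1.27 ± 0.11 (adjusted p = 8.4e-08) and CCNT2, the other cyclin partner, from 46.8, 50.7 and 50.4 CPM to 14.2, 15.6 and 18.8 CPM (-1.61 ± 0.16, adjusted p = 3.3e-07). CDK9 itself did not pass the test, at 42.6 ± 2.80 CPM in untreated cells and 33.6 ± 1.3 CPM with GO-Rg3-DOX (-0.35 ± 0.11, adjusted p = 0.010). It passed with a GC content term (-0.66, adjusted p = 8e-07) and with library totals alone (-0.76, adjusted p = 0.0001). HEXIM2, a paralogue of HEXIM1 that is not a member, had 1.82 ± 0.09 CPM in untreated cells and 0.699 ± 0.35 CPM with GO-Rg3-DOX (-1.37 ± 0.32, adjusted p = 0.0016).

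The promoter sequences of 5 members are shown because these genes moved in opposite directions with GO-Rg3-DOX, HEXIM1 and POLR2A rising and POLR3B, CDK7 and MED17 falling. They are the reference sequence of RefSeq (GRCh38.p14, plus strand of the chromosome for all 5), 5′ to 3′, from the 250 bases before a transcript start and without any exon of a protein-coding gene, so that the POLR2A stretch is the one nearest its start. They lie at chr17:7484264-7484365 for POLR2A, chr17:45148225-45148474 for HEXIM1, chr12:106357498-106357747 for POLR3B, chr5:69234545-69234794 for CDK7 and chr11:93784032-93784226 for MED17. Capitals mark the GC box GGGCGG (or CCGCCC, its complement) and the TATA motif TATAAA (or TTTATA), and the genes and the GC box were chosen after their values were seen.
POLR2A: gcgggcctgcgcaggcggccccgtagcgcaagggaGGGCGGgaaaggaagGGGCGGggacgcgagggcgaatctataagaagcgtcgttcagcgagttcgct
HEXIM1: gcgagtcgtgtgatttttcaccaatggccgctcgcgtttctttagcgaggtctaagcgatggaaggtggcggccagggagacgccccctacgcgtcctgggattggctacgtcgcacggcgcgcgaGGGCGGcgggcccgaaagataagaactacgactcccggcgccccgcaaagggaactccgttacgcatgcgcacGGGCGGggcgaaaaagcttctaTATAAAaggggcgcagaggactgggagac
POLR3B: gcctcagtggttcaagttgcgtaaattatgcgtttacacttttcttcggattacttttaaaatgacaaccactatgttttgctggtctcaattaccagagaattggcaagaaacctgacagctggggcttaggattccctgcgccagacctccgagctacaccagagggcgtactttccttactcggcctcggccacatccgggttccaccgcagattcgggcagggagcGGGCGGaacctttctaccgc
CDK7: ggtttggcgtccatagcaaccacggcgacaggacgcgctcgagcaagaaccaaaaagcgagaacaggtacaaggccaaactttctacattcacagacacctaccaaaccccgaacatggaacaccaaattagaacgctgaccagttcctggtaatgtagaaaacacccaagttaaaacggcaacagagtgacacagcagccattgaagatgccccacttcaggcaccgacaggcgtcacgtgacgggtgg
MED17: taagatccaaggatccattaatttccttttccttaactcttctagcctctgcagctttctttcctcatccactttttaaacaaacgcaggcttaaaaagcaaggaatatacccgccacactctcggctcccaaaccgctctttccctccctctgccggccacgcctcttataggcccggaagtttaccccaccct

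HEXIM1 and POLR2A each held 2 GC boxes in these stretches, POLR3B 1, and CDK7 and MED17 none. Stretches taken from the same source but not printed held 1 each for TAF10 and MED25, which rose, and for POLR1B, which fell. The stretches differ in length, and those of MED17 and POLR1B end 56 and 122 bases before the start, so that GC boxes nearer the start are not counted. POLR3B and CDK7 each have another start site that is not shown. No link between these counts and the direction of change is therefore drawn. Of the 5 printed stretches only that of HEXIM1 held a TATA motif, which lies close to its start. The table held 104 start sites for 80 of the 106 member names, and over their 250 bases the GC box occurred on either strand in 60.6% of the member promoters, against 42.6% of all 35116 promoters of that length. The TATA motif occurred in 4.81% against 10.7%. The GC box was found at 7 of 8 start sites of the overexpressed members and at 29 of 45 (64.4%) start sites, from 32 genes, of the under-expressed ones. A match is a description of letters and not of a site in use.

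GC content, taken from the longest transcript of each gene, moved with the response. Among 104 members with a value, the Spearman correlation across genes of GC content with the log2 fold change was 0.42 with GO-Rg3-DOX and 0.52 with GO, against 0.36 and 0.43 over 16622 genes, and genes are not independent replicates. The 8 overexpressed members with a value had a median GC content of 56.0% (48.3% to 64.8%), the 34 under-expressed ones 43% (35.4% to 64.7%) and all members 45.6%. MED16 stood at 64.8% and POLR2A at 56.1%, whereas MED7 stood at 39.6%, CDK7 at 40.7% and POLR1B at 43%. Under-expressed members with a high GC content were BRF1 (64.7%), TAF6L (63.8%), MED26 (58.5%) and TAF4 (58.2%). With a term for GC content in the fit, 5 members were overexpressed and 31 under-expressed with GO-Rg3-DOX. Of all 17092 genes, 1466 were overexpressed and 2980 under-expressed in that fit. The log2 fold change of POLR2A was 1.34 and that of MED16 was 0.64. The overexpressed members were then POLR2A, HEXIM1, TAF10, TAF15 and MED12L, and those no longer called under-expressed were CCNT1, GTF2A1, POLR2D, POLR3C, POLR3F, TAF1D and TAF5L. Those that became under-expressed included MED11, POLR2H and POLR3E. Whether GC content has a part in the differences beyond this was not tested.

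**Figure D4:**
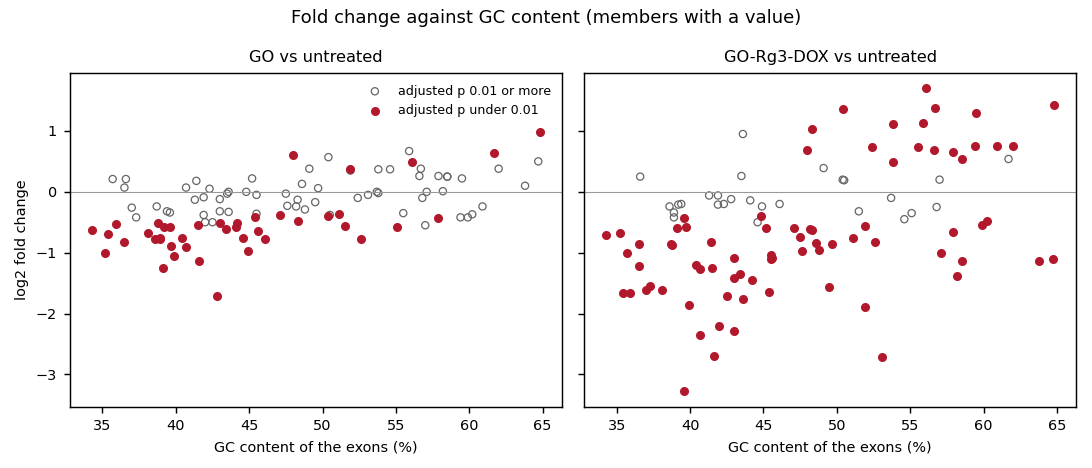
Log2 fold change (y axis) against GC content in percent (x axis) for 104 members with GO (left) and GO-Rg3-DOX (right) against untreated cells. GC content is that of the longest transcript of each gene, although the axis names the exons. Filled points had an adjusted p below 0.01. The highest values with GO-Rg3-DOX lie at 48.3% or more and the lowest value, MED7, at 39.6%.

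Cells exposed to GO alone showed smaller differences. No member was called overexpressed (3.84% of all genes were) and 4 were called under-expressed (3.74%, against 2.62% of all genes), while by adjusted p 6 members were higher (5.61%, against 12.1%) and 37 lower (34.6%, against 15.4%). The median log2 fold change of the members was -0.32 against 0.01 over all genes, and scaling by library totals alone moved the latter to -0.11. At an unadjusted p below 0.05, 66 members and 8670 of all 17092 genes differed. Without GO replicate 1, which stood apart, 0 members were overexpressed and 5 under-expressed, and 4 and 39 passed by adjusted p. Over all genes these counts were 524, 465, 1812 and 2687. DESeq2, and edgeR with RLE scaling, called 2 members overexpressed, TAF15 and MED16, whose edgeR log2 fold changes were 1.0 and 0.99. Over all genes these fits called 727 and 697 overexpressed.

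GTF2B was under-expressed with GO. It had 31.7, 31.9 and 32 CPM in untreated cells, 13.4, 14.6 and 12.2 CPM with GO, 18.6, 24.6 and 23.3 CPM with GO-Rg3 and 17.1, 21.9 and 24.2 CPM with GO-Rg3-DOX. All treated samples lay below the untreated ones and the GO samples below the rest (-1.25 ± 0.14, adjusted p = 1.2e-05 with GO). MED31 fell by 1.13 (adjusted p = 0.00036), and TXNDC17, with which it shares exons, had a log2 fold change of -0.69 (adjusted p = 0.0028). GTF2H2 had 10.3, 11.2 and 9.70 CPM in untreated cells and 5.25, 4.92 and 4.89 CPM with GO, without overlap, and fell by 1.05 (adjusted p = 0.00041). It came to -0.99 without untreated replicate 2. TAF7L, the fourth, which lies below the level set for naming and was chosen after its values were seen, had 0.529, 0.671 and 0.636 CPM in untreated cells and 0.196, 0.241 and 0.113 CPM with GO, and was not called without GO replicate 1 or 3 or without untreated replicate 2 or 3. With a GC content term TAF7L (-1.56) was the only member called under-expressed, and GTF2B, MED31 and GTF2H2 came to -0.96, -0.92 and -0.78, each still with an adjusted p below 0.01.

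By role, the lower members with GO included 8 of the 13 TFIIA to TFIIH genes and 8 of 18 TAFs. GTF2H1, the p62 subunit of TFIIH, fell by 0.89 (adjusted p = 7e-05), and GTF2F2, the small subunit of TFIIF, and GTF2A2, the small subunit of TFIIA, had log2 fold changes of -0.78 and -0.76, the latter coming to -0.44 (adjusted p = 0.027) with a GC content term. POLR3K, a polymerase III subunit for termination, had 35.9, 34.6 and 35.7 CPM in untreated cells and 22.1, 16.9 and 15.3 CPM with GO, without overlap (-0.97 ± 0.13, adjusted p = 6.2e-05). CDK9 fell by 0.58 ± 0.11 (adjusted p = 0.00065). CDK8 was at -0.41 ± 0.11 (adjusted p = 0.0099), which did not hold under most other settings or without single samples (adjusted p 0.013 to 0.035 in 10 of 15 settings). The 6 higher members were POLR1A, POLR2A, POLR3GL, MED15, MED16 and TAF15, and TAF15 had the largest log2 fold change (1.0 ± 0.16, adjusted p = 0.00024). POLR1A, POLR2A and MED15 did not pass with a GC content term (adjusted p 0.015 to 0.017).

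Several large subunits and regulators did not pass the test with GO or GO-Rg3. POLR3A averaged 64.6 ± 0.79 CPM in untreated cells, 70.8 ± 4.39 CPM with GO and 68.7 ± 1.55 CPM with GO-Rg3 (SD, n = 3). MED13 averaged 86.1 ± 2.58 CPM in untreated cells, 73.1 ± 12.3 CPM with GO and 90.2 ± 12.4 CPM with GO-Rg3. In MED13, POLR2B and MED14 the lowest GO sample was replicate 1, which also had the highest mitochondrial share. TAF1 averaged 22.9 ± 1.14 CPM in untreated cells, 26.6 ± 6.82 CPM with GO and 25.4 ± 4.09 CPM with GO-Rg3. CCNT1 averaged 62.8 ± 1.0 CPM, 65.9 ± 5.34 CPM and 68.3 ± 7.68 CPM in the same order, and BRF1 12.5 ± 1.48 CPM, 17.8 ± 1.06 CPM and 15.1 ± 4.73 CPM.

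With GO-Rg3 at the same dose no member passed the test against untreated cells. In edgeR no member was called overexpressed (0.0117% of all genes) or under-expressed (0.0468%), and none passed by adjusted p in either direction (0.0585% and 0.105% of all genes). At an unadjusted p below 0.05, 28 members and 2291 of all 17092 genes differed. DESeq2 gave no member higher and 4 lower at an adjusted p below 0.01, against 69 and 229 of all genes. These 4 were MED31, GTF2A2, POLR2F and POLR2K, whose edgeR log2 fold changes came to -0.92, -0.53, -0.71 and -0.74 (adjusted p 0.027 to 0.046). Without GO-Rg3 replicate 2, MED31 was called under-expressed. TXNDC17, with which MED31 shares exons, stood at -0.89 (adjusted p = 0.018) with GO-Rg3 in edgeR. The members' median was -0.06. GO-Rg3 replicate 2 had the lowest level of its group in POLR2E, MED16, MED25, BRF1 and HEXIM1, so that the SD of MED16 was 18.8 CPM around a mean of 40 CPM. Across the 104 members, transcript length correlated with the log2 fold change with GO-Rg3 at a Spearman value of 0.64, against 0.21 over all genes.

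The direct comparison of GO-Rg3 with GO asked what Rg3 changed on the carrier at an equal dose. No member was called in edgeR in either direction (0.702% of all genes were overexpressed and 2.07% under-expressed). At an unadjusted p below 0.05, 44 members and 6796 of all 17092 genes differed. DESeq2 called 1 member overexpressed (TAF7L), against 131 of all genes. By adjusted p 15 members were higher with GO-Rg3 (14%, against 7.33%) and 2 lower (1.87%, against 6.25%). GTF2H1 had 21.8, 28.5 and 27.3 CPM with GO and 41.1, 52.5 and 44.3 CPM with GO-Rg3, without overlap (0.83 ± 0.12, adjusted p = 0.00031). GTF2B was higher by 0.73 ± 0.14 (adjusted p = 0.0016), POLR1B by 0.55 ± 0.09 (adjusted p = 0.00063) and CDK9 by 0.49 ± 0.11 (adjusted p = 0.0041). The 2 lower members were TAF15, at -0.73 ± 0.16 (adjusted p = 0.0043), and POLR3GL, at -0.69 ± 0.14 (adjusted p = 0.0025).

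These calls depended on the samples in the fit. With only the 6 GO and GO-Rg3 samples no member passed by adjusted p in edgeR (32 at an unadjusted p below 0.05), and 5 were higher without GO replicate 3, 8 without GO-Rg3 replicate 2 and 3 without GO-Rg3 replicate 3. Over all genes, 163 were higher and 319 lower with only the 6 samples. Without those single replicates 609, 684 and 501 of all genes were higher, in the same order. GC content correlated with the log2 fold change of GO-Rg3 against GO at -0.57 across the 104 members and -0.43 over all genes.

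Other genes of the same pathways, from a list of 71 that were all tested, are given by their counts with GO-Rg3-DOX. Of the 71, 3 were overexpressed (against 12.6% of all genes) and 17 under-expressed (against 18.2%), 14 were higher and 38 lower by adjusted p (against 25.5% and 30.5%), and the median log2 fold change was -0.47 against -0.06. TBP, the TATA-binding protein itself, fell from 28.7 to 9.41 CPM on average (-1.61 ± 0.12, adjusted p = 1.9e-08). LEO1, a subunit of the elongation complex PAF1, had a log2 fold change of -2.45 and MLLT3, of the super elongation complex, of -1.91. CDK12 and CDK13, kinases of elongating polymerase II, had log2 fold changes of -1.5 and -1.66, and LARP7, which binds the 7SK RNA together with HEXIM1, of -1.05. The 3 called overexpressed were DRAP1 (1.01), which represses TBP, and the elongation factors TCEB2 (1.09) and TCEA2 (1.07). In the same list DR1 had a log2 fold change of -1.41 (adjusted p = 4.7e-09) and TCEB3 of -0.82 (adjusted p = 5.2e-06). With GO 0 of the 71 were overexpressed (3.84% of all genes) and 5 under-expressed (2.62% of all genes) in edgeR. At an unadjusted p below 0.05, 41 of the 71 differed with GO, and 8670 of all 17092 genes. With GO-Rg3 none of the 71 passed by adjusted p, and 16 differed at an unadjusted p below 0.05 (2291 of all genes).

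The genes whose log2 level over the 12 samples was most like that of BRF2 or POLR2A are given as a description, since all points share the 4 groups. For BRF2 they were RNF43 (Pearson r = 0.998), ARHGEF3, ARF6 and CCDC71 (0.997 each) and ZNF74 (0.996), and ARF6 fell from a mean of 73.2 to 7.06 CPM with GO-Rg3-DOX. For POLR2A they were HABP2 and MYCL (0.992 each), OS9 (0.991), CEL (0.990) and HYOU1 (0.989), and HYOU1 stood at 566 CPM in untreated cells and 1280 CPM with GO-Rg3-DOX.

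Members not described above mostly lay below the limit for a call with GO-Rg3-DOX. Those lower by adjusted p alone included GTF2E2, POLR1E, POLR2H, POLR3D, POLR3E, TAF8, TAF11, MED6, MED8 and MED11, with log2 fold changes from -0.95 (MED8) to -0.43 (TAF11), of which MED6 and TAF11 did not pass with a GC content term (adjusted p 0.011 and 0.54). GTF2IRD1, of the TFII-I family, was under-expressed at -1.01, but was not called with DESeq2 or RLE scaling. GTF2H3, GTF2H5, TAF2, MED12L, MED19, MED22, MED27, MED28 and MED30 did not pass the test, with values from -0.50 (MED30) to 0.95 (MED12L).

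In some rows reads may be shared. POLR2J3 and both POLR2J4 rows are near-copies of POLR2J, and GTF2IP1, GTF2IRD2 and GTF2I share near-identical sequence, so that their values are uncertain. Their levels in untreated cells were under 5 CPM except for GTF2I (88.5 to 97.3 CPM) and POLR2J (34.01 to 39.2 CPM). GTF2H4, which shares 79.7% of its exons with another gene, was at 0.448 to 0.607 CPM in untreated cells and did not pass the test in any comparison.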

How the data were processed

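Total RNA of 12 Huh7 samples was sequenced from stranded mRNA libraries. The authors aligned the reads to GRCh37 with the NGI-RNAseq pipeline and counted them per gene with featureCounts, and the table they deposited holds unnormalized counts of reads for 63677 genes. The annotation release and the strand option of the counting are not given in the sources used here, so reads from genes that overlap on opposite strands may not be told apart.

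The 17092 genes that reached 10 counts in 3 or more samples were tested. Counts were scaled by TMM and tested with the quasi-likelihood test of edgeR 4.0.16 (R 4.3.3) in one model of the 12 samples without a replicate block, and p-values were adjusted over all genes by the Benjamini-Hochberg procedure in each of 4 comparisons, of which those against untreated cells share the untreated samples. Thresholds (adjusted p below 0.01, absolute log2 fold change above 1) follow the paper. DESeq2 1.42.0 and the other settings are given in the closing section. On simulated counts for GO-Rg3-DOX with 200 of 16686 genes changed by 2 on the log2 scale, 200 were recovered and 0 false calls were made. The changed genes were well expressed and split evenly between rises and falls, with no shift in mitochondrial share or GC content. This checks that the code runs as intended and does not measure errors in the real comparison. Levels are means ± SD of TMM-normalized CPM. Total counts ranged from 27802871 to 38877420 per sample.

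The members, roles, pathway list and tests were chosen with earlier results of these data known. Named genes were, per comparison, up to 12 called members with the largest rise and 12 with the largest fall at a mean of 1 CPM or more, and a list of catalytic subunits and regulators. Exon length (all exons of a gene) and GC content (its longest transcript) came from GENCODE lifted to GRCh37 and were found for 104 of 107 members. Promoters came from RefSeq (GRCh38.p14). No sample column was left unused. The genes whose levels were most like those of HEXIM1 are not reported here.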

Additional observations from a re-analysis of the deposited data

How the results depend on the processing

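Calls among the 107 members depended most on the scaling and on GC content. With GO, the count called overexpressed was 0 and became 2 under RLE scaling, with a minimum of 10 counts in all samples, with DESeq2 and with only the 6 samples compared (TAF15 and MED16 each time), and 0 to 2 when each replicate was left out. The count called under-expressed was 4 and became 7 with library totals alone, 1 with a GC content offset and 1 with that offset and the replicate block (TAF7L both times), and 2 to 5 with single replicates left out. With GO-Rg3, 0 were under-expressed, and 0 to 1 with single replicates left out (1 without GO-Rg3 replicate 2). With GO-Rg3-DOX, 9 were overexpressed, and 1 with library totals alone. The GC content offset gave 5, with or without the replicate block. The count under-expressed was 34, and 53 with library totals alone. It was 31 under RLE scaling, with DESeq2 and with only the 6 samples compared, each time without GTF2A1, GTF2IRD1 and POLR2D. Over all genes these 3 fits called 2844, 2835 and 2938 under-expressed. Over all 17092 genes, library totals alone called 1029 overexpressed and 4937 under-expressed, against 2159 and 3103 in the main fit. With the GC content offset these counts were 1466 and 2980. For GO-Rg3 against GO, 0 were overexpressed, and 1 (TAF7L) with library totals alone, without a filter on low counts, with DESeq2 and with the replicate block, and 0 to 1 with single replicates left out. By adjusted p alone, library totals moved the split with GO-Rg3-DOX from 19 higher and 59 lower to 9 and 73. Over all genes it moved from 4350 higher and 5214 lower to 2152 and 7293. The 6 higher members with GO became 2 without untreated replicate 1 or 2, and 3 without untreated replicate 3 or GO replicate 3. With GO-Rg3, members lower by adjusted p numbered 9 without a filter, 2 with the GC content offset and 3 with that offset and the replicate block. With GO-Rg3 against GO, those lower numbered 2, and 4 without a filter, 4 with the replicate block, 5 with the GC content offset and 6 without GO-Rg3 replicate 1.

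Over 44 gene comparisons named and all alternatives, 660 values were computed, of which 582 kept their side of the threshold, 78 lost it and 0 changed sign. The threshold was that of a call for genes named for the largest rises and falls. For those named only from the list of catalytic subunits and regulators it was the adjusted p alone. Such a gene could lose its call and still be counted as kept. Whether replicate numbers pair the samples is not stated and could not be settled here. The correlation of deviations between samples of the same number was 0.092 on average (-0.024 to 0.253). Between different numbers it was -0.045 on average (-0.257 to 0.212), so that the ranges overlapped. The replicate block left 44 of 44 named gene comparisons on their side of this threshold and the counts with GO-Rg3-DOX at 9 and 34. By adjusted p with GO it moved higher members from 6 to 10 and lower ones from 37 to 46. Causes of these changes were not tested beyond what each setting alters. Depth limits the values of TAF7L, GTF2H4 and MED12L, which lay near or under 1 CPM.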
